A study of Mus musculus with 9 samples.

Results

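The carbonic anhydrases are the zinc enzymes that hydrate carbon dioxide, together with relatives of theirs that have lost the zinc site. The 10 members described here are Car2, Car3, Car4, Car5b, Car8, Car9, Car11, Car12, Car13 and Car14, the rows of the gene count table that carry these symbols, out of 55276 rows in all. The family was chosen on the measured values of Car3, which was seen at a high level in one clone only, so the levels of Car3 are given as a description and without a test. The other 6 carbonic anhydrase genes of the mouse (Car1, Car5a, Car6, Car7, Car10 and Car15) are given beside them. PPTR cells are a mouse line of intrahepatic cholangiocarcinoma, a cancer of the bile ducts inside the liver, that was derived from a liver cancer organoid and carries Prom1CreERT2, Ptenflx/flx, Tp53flx/flx and a Rosa-ZsGreen reporter. All 3 groups share these alleles, in which Cre recombinase is expressed from the Prom1 locus, a gene of liver progenitors. The groups were the control cells (Vcam1ctrl, labelled WT) and 2 clones made with Cas9 and a guide against exon 2 of Vcam1 (Vcam1KO1 and Vcam1KO2), all grown as cultures in medium with serum. Each clone descends from 1 single cell, so that what a clone carries besides the edit cannot be told apart from the edit. Each group had 3 RNA sequencing libraries, 9 in all, made from different passages, and the passage of each library was not used here. No animals enter these data, and the spread between libraries may be technical in part.

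Carbonic anhydrases turn carbon dioxide and water into bicarbonate and a proton and back, and so tie respiration to the pH inside and outside the cell. In the bile duct the cytosolic enzyme Car2 supplies bicarbonate that chloride-bicarbonate exchangers carry into the bile. The members differ in where they sit. Car2, Car3, Car7 and Car13 are cytosolic, Car5a and Car5b are mitochondrial, Car6 is secreted, Car4 and Car15 are held at the outside of the membrane by a lipid anchor, and Car9, Car12 and Car14 span the membrane with the active site outside. Car3 is a slow enzyme that is abundant in skeletal muscle, fat and liver. Car8, Car10 and Car11 lack a complete zinc site and are known as carbonic anhydrase related proteins.

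Library totals ran from 53415907 to 125223073 counts, and levels are given in CPM, the counts scaled to a common library size with TMM factors, so that 3 counts correspond to between 0.0239 and 0.0554 CPM. Vcam1 was the check of the labels and was lower in both clones, at log2 fold changes of -1.32 (SE 0.20, adjusted p = 3.5e-04) in Vcam1KO1 and -1.41 (SE 0.20, adjusted p = 2.9e-04) in Vcam1KO2 by edgeR's quasi-likelihood test. Krt19, a keratin that defines the labelled cell type, stood at 2129, 2341 and 2406 CPM in control and at no more than 0.226 CPM in any clone library, so that this marker of bile duct cells was all but absent from both clones. Replicate 3 of Vcam1KO1 stood apart, since its 12 proliferation genes summed to 243 CPM against 1182 and 1423 CPM in the other libraries of that clone. Several of the results that rest on that library are given with and without it. Genes were tested with edgeR (quasi-likelihood), all adjusted p values below are Benjamini-Hochberg values over the 17672 genes tested, and both clones were compared with the same 3 control libraries.

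The zinc ion of an active carbonic anhydrase is held by 3 histidines, of which the first pair lie close together in the sequence. The coding stretches around that pair are shown for 4 members because they separate the enzymes from the related proteins. Capitals mark the codons that align with the first pair of zinc-binding histidines of Car2, the sequences run 5′ to 3′ on the coding strand, and the coordinates are those of GRCm38 with GENCODE vM21.
Car3 (chr3:14866826-14866879, plus strand): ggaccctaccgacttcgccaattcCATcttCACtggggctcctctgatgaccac
Car13 (chr3:14650682-14650735, plus strand): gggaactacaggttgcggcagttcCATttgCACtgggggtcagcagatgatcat
Car2 (chr3:14895045-14895098, plus strand): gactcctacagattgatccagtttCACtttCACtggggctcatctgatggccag
Car11 (chr7:45702524-45702577, plus strand): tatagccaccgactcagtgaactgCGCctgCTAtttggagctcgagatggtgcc
Car2, Car3 and Car13 hold a histidine codon, CAT or CAC, at all 3 zinc positions, as do Car4, Car5b, Car9, Car12 and Car14. Car8 holds 2 of the 3, and Car11 holds 0 of the 3. By its translated coding sequence Car3 was closest to Car13, with 60.8% identical residues, and then to Car2 with 56.9% and Car1 with 56.0%, and among the members it was farthest from Car11 with 31.4%. The counts of these genes could be told apart, since Car2, Car4, Car11, Car13 and Car14 shared no stretch of 31 bases with any other gene, and Car3 shared 0.424% of its own.

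The carbonic anhydrases moved in both directions, and the clones differed from each other for most of them. In Vcam1KO1, Car13, Car11 and Car14 were higher than in control and Car2, Car5b, Car8, Car9 and Car12 were lower. In Vcam1KO2, Car13 and Car5b were higher and Car2, Car8, Car9 and Car12 were lower. Leaving out Car3, for which no test is given, and Car4, which did not pass the filter on low counts, 8 members were tested. In Vcam1KO1 3 of them were higher and 5 lower, against 29.9% of all genes called higher and 30.0% called lower. In Vcam1KO2 2 were higher and 4 lower, against 25.3% and 26.1% of all genes. Between the clones 5 were higher in Vcam1KO1 and 2 lower, against 20.2% and 18.5% of all genes. With the 6 libraries of both clones set together against control, 1 member was higher (Car13) and 4 were lower (Car2, Car8, Car9 and Car12), against 21.7% and 21.2% of all genes. Car14, like Car1 outside the 10, passed the filter through the Vcam1KO1 libraries alone. Car8 passed it through the control libraries alone, and Car6 outside the 10 passed only because of them. A difference in these genes was thus built into their being tested. The counts above include Car14 and Car8.

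**Figure D1:**
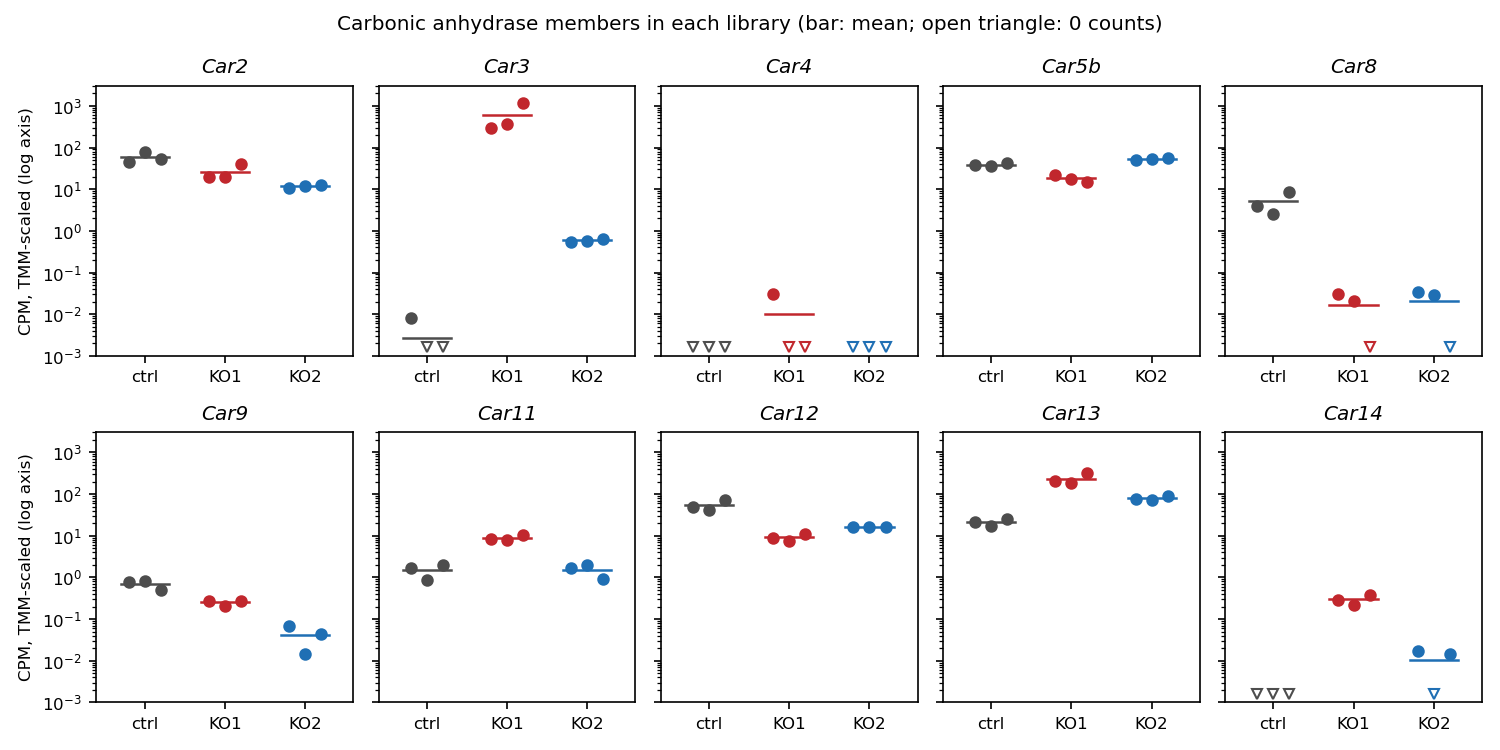
Levels of the 10 members in each library, in CPM scaled with TMM factors on a log axis, for control (ctrl), Vcam1KO1 and Vcam1KO2 cells; points are libraries, bars are means of 3 libraries and open triangles are libraries with 0 counts. Car3 lies between 293 and 1150 CPM in Vcam1KO1 and at 0.651 CPM or less in every other library.

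Car3 was the member with the widest range. It had 1, 0 and 0 counts in the control libraries, 32, 41 and 44 counts in the Vcam1KO2 libraries and 19597, 35604 and 72064 counts in the Vcam1KO1 libraries. In CPM these were 0.00797, 0 and 0 in control, 0.548, 0.580 and 0.651 in Vcam1KO2 and 293, 371 and 1150 in Vcam1KO1. The 3 groups did not overlap, and the lowest Vcam1KO1 library lay above every library of the other groups. The mean of 605 ± 474 CPM (SD, n = 3) in Vcam1KO1 was 1020 times the mean of 0.593 ± 0.0525 CPM in Vcam1KO2, and 561 times without replicate 3 of Vcam1KO1. Against the single control count, the pooled counts gave a ratio of 153.9 in Vcam1KO2, with a 95% counting interval from 27.1 to 6131, and a ratio of 146200 in Vcam1KO1, with an interval from 26240 to 5774000, or a ratio of 87831 without that replicate. These intervals cover counting error only, and the single control count sets their width. Replicate 3 of Vcam1KO1 held 3.46 times the mean of replicates 1 and 2, which was 332 CPM, so the high level was present in that clone with and without this library. In bulk RNA a larger number of cells with the transcript and more transcript per cell cannot be told apart. Of Car3's nearest relatives by sequence, Car13 was also higher in Vcam1KO1 than in Vcam1KO2 and higher in Vcam1KO2 than in control, while Car2 went the other way against control.

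Car3 lies on chromosome 3 at 14863512 to 14872523 of GRCm38, on the plus strand, in a cluster of 4 carbonic anhydrase genes that spans 259 kb and runs Car13, Car1, Car3, Car2. Car2 starts 13.8 kb beyond the end of Car3 and on the same strand, and Car1 lies 55.1 kb before it on the minus strand. The Vcam1 locus is on the same chromosome, 101.2 Mb away. Car13, a cytosolic enzyme of many tissues, stood at 20.8, 17.4 and 24.8 CPM in control, at 208, 182 and 313 CPM in Vcam1KO1 and at 74.0, 71.7 and 91.3 CPM in Vcam1KO2. The 3 groups were separate, in the order Vcam1KO1, Vcam1KO2, control. Car13 was 11.2 times control in Vcam1KO1 (log2 fold change 3.48, SE 0.23, adjusted p = 2.1e-06, edgeR) and 3.76 times control in Vcam1KO2 (1.91, SE 0.22, adjusted p = 8.1e-05, edgeR), and the clones differed by a log2 value of 1.57 (SE 0.22, adjusted p = 6.3e-04, edgeR). It was the only tested member that was called higher in both clones under every alternative in which it was fitted.

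Car2, the enzyme of bicarbonate secretion, fell in both clones. It stood at 45.2, 77.9 and 53.9 CPM in control, at 19.6, 19.3 and 40.6 CPM in Vcam1KO1 and at 10.97, 11.8 and 12.7 CPM in Vcam1KO2. No clone library reached the lowest control library, and replicate 3 of Vcam1KO1 came closest to the control level. Its log2 fold change was -1.15 (SE 0.30, adjusted p = 0.0086, edgeR) in Vcam1KO1 and -2.32 (SE 0.31, adjusted p = 2.2e-04, edgeR) in Vcam1KO2, a mean 5.00 times lower in the latter clone. The difference between the clones was 1.17 (SE 0.30, adjusted p = 0.014, edgeR) and was no longer called without replicate 1 of Vcam1KO2 (adjusted p = 0.052, edgeR).

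Car1, the cytosolic enzyme of red blood cells and colon epithelium, had 0 counts in all control libraries, 24, 33 and 76 counts in Vcam1KO1 and 6, 2 and 2 counts in Vcam1KO2. It was at least 50.9-fold higher in Vcam1KO1 and at least 4.39-fold higher in Vcam1KO2 than a floor of 3 counts over the control group. Without replicate 3 of Vcam1KO1 the bound in that clone was 30.2-fold. The gene was tested only because the Vcam1KO1 libraries passed the filter, so its calls (adjusted p = 6.8e-04 and 0.034, edgeR) are no support for a difference. The call in Vcam1KO2 was lost without any one control library or without replicate 1 of that clone (adjusted p between 0.055 and 0.091, edgeR). Of its 31-base stretches 20.1% occur also in the pseudogene Gm5843, which had 0 counts. Of the red-cell markers, Hbb-bs stayed at no more than 0.0150 CPM in any library and Klf1 at no more than 0.351 CPM. Hba-a1 ran from 0.0160 to 1.32 CPM in Vcam1KO1 and from 0.720 to 1.97 CPM in Vcam1KO2, with a control mean of 0.185 CPM. The mean of Hba-a1 was 2.46 times control in Vcam1KO1 and 6.99 times control in Vcam1KO2. The part of these markers in the level of Car1 was not tested.

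Within 500 kb of Car3 lie 19 other genes of the count table, Car13, Car1 and Car2 included, and 5 of them were tested. Lrrcc1, a centrosomal protein gene, was higher in Vcam1KO1 (log2 fold change 1.17, SE 0.16, adjusted p = 1.8e-04, edgeR) and in Vcam1KO2 (0.59, SE 0.16, adjusted p = 0.011, edgeR). E2f5, a repressor of cell cycle genes, was lower in Vcam1KO1 (-0.54, SE 0.17, adjusted p = 0.020, edgeR) and at -0.39 (SE 0.17, adjusted p = 0.079, edgeR) in Vcam1KO2, where it was not called. The 14 genes that were not tested stayed at 0.189 CPM or less in every library. The tested neighbours of Car3 thus moved by different amounts and in both directions in Vcam1KO1.

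**Figure D2:**
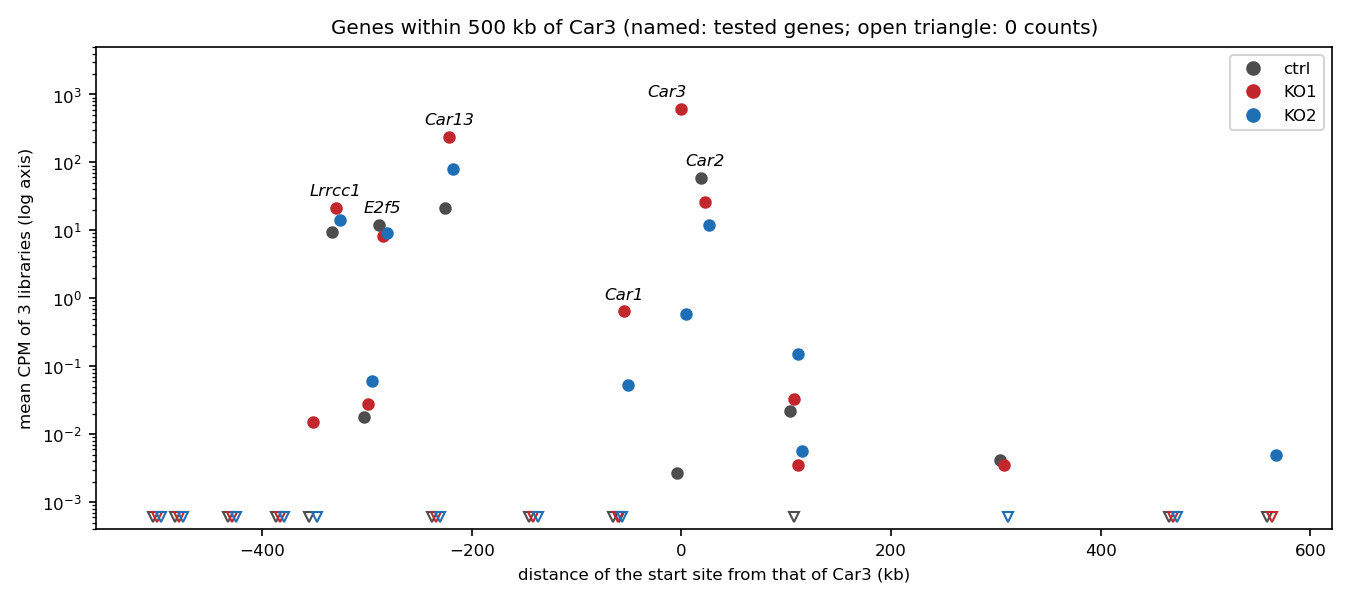
Mean CPM of 3 libraries per group (log axis) for Car3 and the 19 genes of the table within 500 kb of it, by the distance of each start site from that of Car3 in kb; open triangles are groups with 0 counts and the groups of one gene are set slightly apart. Car13, Car1 and Car3 are highest in Vcam1KO1, and Car2 is highest in control.

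Car5b, the mitochondrial enzyme that supplies bicarbonate to carboxylases, was the member that moved in opposite directions in the clones. It stood at 37.9, 35.1 and 43.5 CPM in control, at 21.5, 18.0 and 14.96 CPM in Vcam1KO1 and at 50.1, 52.9 and 57.1 CPM in Vcam1KO2. None of the 3 groups overlapped. The log2 fold change was -1.10 in Vcam1KO1 (SE 0.15, adjusted p = 1.8e-04, edgeR) and 0.46 in Vcam1KO2 (SE 0.15, adjusted p = 0.026, edgeR), with a difference between clones of -1.56 (SE 0.15, adjusted p = 8.6e-05, edgeR). The increase in Vcam1KO2 was not called without control replicate 1 or 2 or without any one library of Vcam1KO2 (adjusted p between 0.055 and 0.109, edgeR). Of the 31-base stretches of Car5b, 7.66% occur in other genes. Its mitochondrial relative Car5a did not pass the filter and stayed at 0.120 CPM or less.

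Car12 and Car9 are membrane enzymes that acidify the outside of tumour cells, and both are known targets of the hypoxia-inducible factors (HIF). Car12 stood at 49.4, 42.4 and 70.8 CPM in control, at 8.98, 7.52 and 11.0 CPM in Vcam1KO1 and at 16.6, 16.4 and 16.2 CPM in Vcam1KO2. All clone libraries lay below control, and those of Vcam1KO1 lay below those of Vcam1KO2. The mean was 5.91 times lower than control in Vcam1KO1 (log2 fold change -2.56, SE 0.21, adjusted p = 7.6e-06, edgeR) and 3.30 times lower in Vcam1KO2 (-1.72, SE 0.21, adjusted p = 1.0e-04, edgeR). The clones differed by -0.84 (SE 0.20, adjusted p = 0.010, edgeR).

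Car9 was expressed at a low level, 0.765, 0.812 and 0.493 CPM in control, 0.270, 0.209 and 0.271 CPM in Vcam1KO1 and 0.0685, 0.0141 and 0.0444 CPM in Vcam1KO2. The order of the groups was thus control, Vcam1KO1, Vcam1KO2, the reverse of the clones' order for Car12. Its log2 fold change was -1.47 (SE 0.39, adjusted p = 0.0096, edgeR) in Vcam1KO1. In Vcam1KO2, with 8 counts over the group against 179 in control, it was 17.01 times lower by pooled counts, with a counting interval from 8.45 to 40.0, at adjusted p = 1.1e-04 (edgeR). The difference between the clones was 2.55 (SE 0.50, adjusted p = 0.0038, edgeR). With both clones set together against control, the call of Car9 (log2 fold change -2.22, adjusted p = 0.028, edgeR) was lost without control replicate 1 or 2 (adjusted p = 0.082 and 0.072, edgeR).

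The 250 bases before the start of Car9 in RefSeq (chr4:43506776-43507025 of GRCm38.p6, plus strand) are shown because they hold the short core letters that HIF binds. The core searched was ACGTG on either strand, and the E-box searched was CACCTG on either strand, the letters bound by the repressors of the Snail and Zeb families. Capitals mark the matches of both.
Car9: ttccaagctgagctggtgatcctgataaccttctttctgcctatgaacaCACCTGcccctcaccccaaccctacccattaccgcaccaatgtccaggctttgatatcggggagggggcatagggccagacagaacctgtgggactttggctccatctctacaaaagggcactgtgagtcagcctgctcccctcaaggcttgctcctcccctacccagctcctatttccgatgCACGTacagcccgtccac
The HIF core begins 18 bases before the start site and the E-box 201 bases before it. The core was found in 16.6% and the E-box in 17.2% of the 32851 promoters of this length, so either match is common. The promoter of Car14 also holds the HIF core, 7 bases before its start, while that of Car12 holds neither.

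Car14, a membrane enzyme of liver, kidney and retina, had 0 counts in all control libraries, 19, 21 and 24 counts in Vcam1KO1 and 1, 0 and 1 counts in Vcam1KO2. It was at least 24.5-fold higher in Vcam1KO1 than the floor of 3 counts over the control group (adjusted p = 2.4e-04, edgeR) and 27.9 times its pooled level in Vcam1KO2, with a counting interval from 7.43 to 235.7 (adjusted p = 0.0019, edgeR). Since Car14 was tested only because the Vcam1KO1 libraries passed the filter, these calls are no support for a difference. Its level in Vcam1KO1, between 0.219 and 0.383 CPM, was low beside Car12 in the same libraries. The bound of 24.5-fold was 21.2-fold without replicate 3 of Vcam1KO1. Car4, the lipid-anchored enzyme of lung and kidney, had 2 counts in 1 Vcam1KO1 library and 0 in the other 8, and was not tested.

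The other genes of the HIF system were read from lists. Of 27 tested HIF targets, 3 were higher and 17 lower in Vcam1KO1 (median log2 fold change -0.83 against 0.02 for all genes), and 4 were higher and 9 lower in Vcam1KO2 (median -0.30 against 0.00 for all genes). Between the clones 1 target was higher in Vcam1KO1 and 15 were lower, against 20.2% and 18.5% of all genes. Against control the shares of all genes called higher and lower were 29.9% and 30.0% in Vcam1KO1 and 25.3% and 26.1% in Vcam1KO2. Slc2a1, the glucose transporter of hypoxic cells, fell in both clones together (log2 fold change -3.17, adjusted p = 1.0e-05, edgeR), and Ero1l, an oxidase of disulfide formation, fell by 2.65 on the log2 scale (adjusted p = 0.010, edgeR). Among the targets called with both clones together, those with the highest changes were P4ha1, a collagen prolyl hydroxylase (0.64, adjusted p = 0.023, edgeR), and Kdm3a, a histone demethylase (0.35, adjusted p = 0.035, edgeR). Of the 9 genes of the HIF pathway itself, 5 were higher and 1 lower in Vcam1KO1 (median log2 fold change 0.36) and 2 were higher and 2 lower in Vcam1KO2 (median 0.18). Arnt2, a dimer partner of the HIF subunits, rose by 2.63 on the log2 scale (adjusted p = 3.0e-05, edgeR), and Vhl, which marks HIF for degradation, rose by 0.85 (adjusted p = 0.0032, edgeR).

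Car8, which lacks one zinc histidine and binds the inositol trisphosphate (IP3) receptor, was all but absent from both clones. It stood at 4.02, 2.57 and 8.68 CPM in control, and had 2, 2 and 0 counts in the libraries of Vcam1KO1 and again 2, 2 and 0 counts in those of Vcam1KO2. By pooled counts it was 289 times lower in Vcam1KO1 (counting interval 113 to 1063, adjusted p = 2.5e-05, edgeR) and 253 times lower in Vcam1KO2 (98.4 to 928, adjusted p = 3.6e-05, edgeR). Since Car8 was tested only because the control libraries passed the filter, these calls are no support for a difference. The clones could not be told apart at this depth, with 4 counts each over the group. Of its partners, the IP3 receptor genes, Itpr1 was higher in both clones, at 28.1, 25.8 and 29.6 CPM in control, 216, 229 and 356 CPM in Vcam1KO1 and 94.0, 91.8 and 72.2 CPM in Vcam1KO2. Its log2 fold change was 3.26 (SE 0.21, adjusted p = 1.6e-06, edgeR) in Vcam1KO1 and 1.63 (SE 0.20, adjusted p = 1.1e-04, edgeR) in Vcam1KO2. Itpr2 fell by 1.30 on the log2 scale with both clones together (adjusted p = 0.0020, edgeR). Of the 3 receptor genes, 1 was higher and 2 lower in Vcam1KO1, and 1 was higher and 1 lower in Vcam1KO2. Among all genes, 29.9% were called higher and 30.0% lower in Vcam1KO1, and 25.3% and 26.1% in Vcam1KO2.

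Car11, a secreted related protein with 0 of the 3 zinc histidines, was higher in Vcam1KO1 alone among the groups measured. It stood at 1.68, 0.886 and 1.94 CPM in control, at 8.36, 8.05 and 10.3 CPM in Vcam1KO1 and at 1.68, 1.99 and 0.902 CPM in Vcam1KO2. The Vcam1KO1 libraries lay above all others, and those of control and Vcam1KO2 overlapped. It was 5.93 times control in Vcam1KO1 (log2 fold change 2.56, SE 0.36, adjusted p = 2.4e-04, edgeR), and its log2 fold change in Vcam1KO2 was 0.01 (SE 0.35, adjusted p = 0.98, edgeR). The difference between the clones was 2.54 (SE 0.36, adjusted p = 7.3e-04, edgeR).

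**Figure D3:**
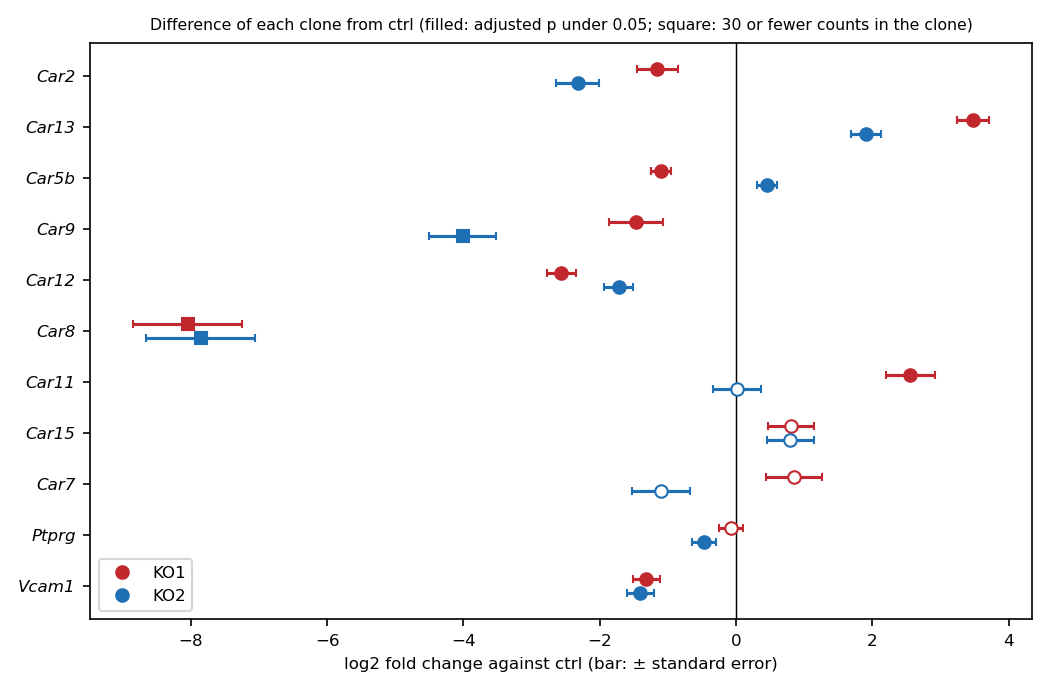
Log2 fold change of each clone against the same 3 control libraries, with a standard error derived from the F statistic of edgeR's test. Drawn are Car2, Car5b, Car7, Car8, Car9, Car11, Car12, Car13, Car15, the related receptor Ptprg and Vcam1. Filled points have an adjusted p under 0.05 and squares mark 30 or fewer counts in the clone. Car6, which was called lower in both clones, is not drawn, nor are the other genes of the family. Car13 is higher and Car2, Car8, Car9 and Car12 are lower in both clones, and the points of Car5b lie on opposite sides of 0.

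Among the carbonic anhydrase genes outside the 10, Car6 was called lower in both clones. Car6, the enzyme of saliva, stood at 27.9, 19.4 and 10.7 CPM in control, at 0 counts in all Vcam1KO1 libraries and at 1.52, 1.63 and 0.0148 CPM in Vcam1KO2. It was at least 1568-fold lower in Vcam1KO1 than in control, taking 3 counts over the clone's group as the floor (adjusted p = 7.0e-04, edgeR), and 18.4 times lower in Vcam1KO2 (adjusted p = 0.010, edgeR). Replicate 3 of Vcam1KO2 held 1 count, so the libraries of this clone did not agree among themselves. Car6 reached the filter's cutoff in 3 control, 0 Vcam1KO1 and 2 Vcam1KO2 libraries. Its testing thus rested on the control libraries, so these calls are no support for a difference. Car7, a cytosolic enzyme of neurons, stood at 0.900, 0.738 and 0.708 CPM in control, 1.05, 0.803 and 2.43 CPM in Vcam1KO1 and 0.308, 0.368 and 0.414 CPM in Vcam1KO2. Neither clone was called against control for Car7 (adjusted p = 0.097 and 0.055, edgeR), although 6 of 15 alternatives called it lower in Vcam1KO2 (adjusted p between 0.0097 and 0.142 over all 15) and 1 of 15 called it higher in Vcam1KO1. By edgeR the clones differed from each other by 1.96 (SE 0.43, adjusted p = 0.0065, edgeR). Car15 was at 0.80 on the log2 scale in each clone and was not called (adjusted p = 0.067 and 0.078, edgeR), and 61.3% of its 31-base stretches occur also in Gm20518. Car10 did not pass the filter. Of the receptor phosphatases that carry a carbonic anhydrase domain, Ptprg was at -0.47 in Vcam1KO2 (SE 0.18, adjusted p = 0.048, edgeR) and at -0.07 (SE 0.18, adjusted p = 0.75, edgeR) in Vcam1KO1, and Ptprz1 was not tested.

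The levels of different genes were compared per kilobase of exon, since longer transcripts collect more reads. Over all 16 carbonic anhydrase genes the summed level was 60.3 ± 2.73 CPM per kb (SD, n = 3) in control, 334 ± 201 in Vcam1KO1 (218.5 without its replicate 3) and 52.0 ± 4.59 in Vcam1KO2. In control cells Car2 led with 24.4 ± 6.99 CPM per kb, or 40.1% of the sum, followed by Car6 (10.7 ± 4.75), Car13 (9.14 ± 1.63), Car12 (7.13 ± 1.95) and Car5b (6.11 ± 0.673), and among these last 4 the libraries of neighbours in that order overlapped. Their order depended on the length used, since by coding length in place of exon length Car2 still led with 33.7% of the sum, but Car12 (22.7%) and Car5b (18.2%) came before Car13 (11.9%) and Car6 (9.29%). In Vcam1KO1 Car3 led with 211 ± 165 CPM per kb (116 without replicate 3), or 58.9 ± 11.3% of the sum (52.95% without it). Car13 followed with 102 ± 30.2 and Car2 with 10.95 ± 5.05 (8.04 without replicate 3). The share of Car3 was 48.5%, 57.4% and 70.9% in replicates 1 to 3 of that clone, and in replicates 1 and 3 its level was 102 and 401 CPM per kb against 90.5 and 136 for Car13. In Vcam1KO2 Car13 led with 34.4 ± 4.66 CPM per kb, or 65.9 ± 3.10%, then Car5b with 8.40 ± 0.559 and Car2 with 4.87 ± 0.349, and Car3 made up 0.398%. By coding length Car13 still led in that clone with 52.2%, before Car5b with 29.3%. Without Car3 the sum was 123 ± 36.4 CPM per kb in Vcam1KO1 (102.5 without its replicate 3) and 51.8 ± 4.57 in Vcam1KO2. Every Vcam1KO1 library still lay above all libraries of control and Vcam1KO2. Leaving out Car3, for whose level in Vcam1KO1 the family was chosen, Car13 led in both clones and Car2 led in control.

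**Figure D4:**
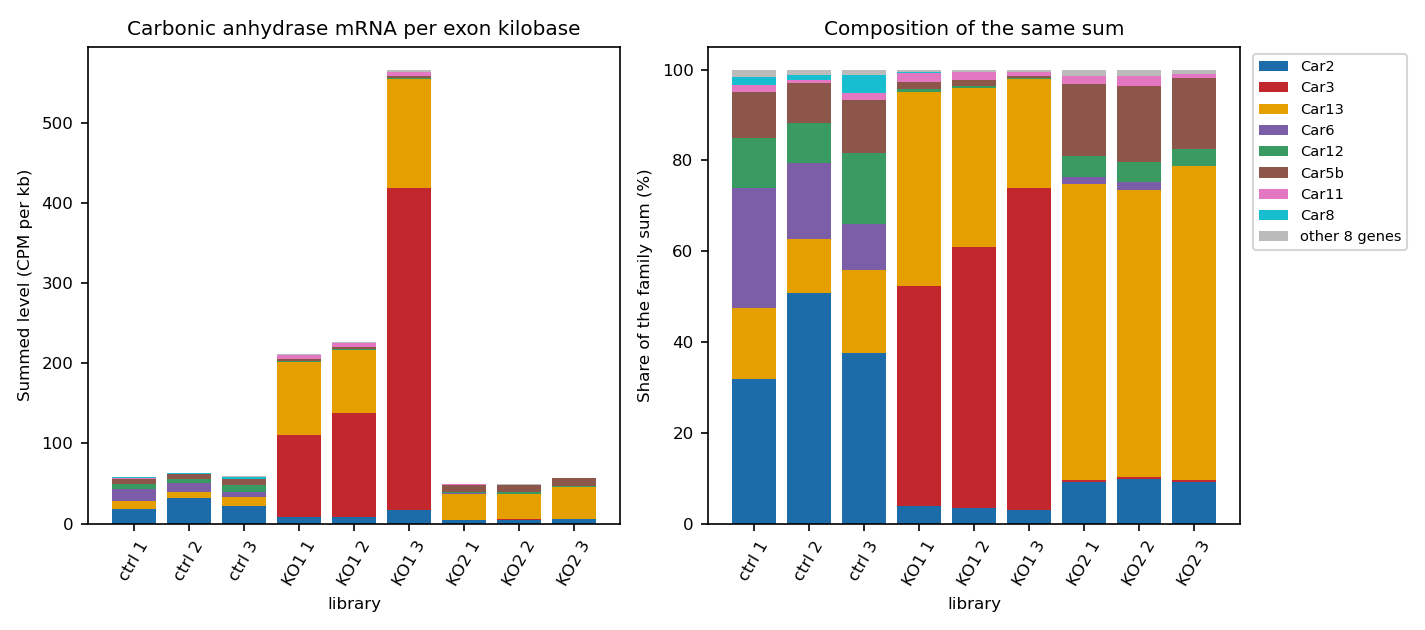
Left, the summed level of the 16 carbonic anhydrase genes in each library, in CPM per kb of exon; right, the share of each gene in that sum in percent, with the 8 least abundant genes drawn together. Car2 takes between 32.0% and 50.7% in control, Car3 between 48.5% and 70.9% in Vcam1KO1 and Car13 between 63.2% and 69.3% in Vcam1KO2.

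Carbonic anhydrases work with carriers of bicarbonate, protons and lactate. Of 16 tested bicarbonate transporter genes, 4 were higher and 8 lower in Vcam1KO1 and 4 were higher and 9 lower in Vcam1KO2, with median log2 fold changes of -1.22 and -1.30 against 0.02 and 0.00 for all genes. The shares of all genes called higher and lower were 29.9% and 30.0% in Vcam1KO1 and 25.3% and 26.1% in Vcam1KO2. Slc4a2, the chloride-bicarbonate exchanger of bile ducts, rose from a mean of 135 CPM in control to 491 CPM in Vcam1KO1 and 309 CPM in Vcam1KO2 (log2 fold change of both clones together 1.57, adjusted p = 7.0e-04, edgeR), and its relative Slc4a3 rose by 1.35 on the log2 scale (adjusted p = 0.027, edgeR). Slc4a11, a membrane proton carrier, fell from 314 CPM to 1.65 CPM in Vcam1KO1 and 14.99 CPM in Vcam1KO2 (adjusted p = 0.0010 with both clones together, edgeR). Slc26a2, a sulfate carrier, fell by 1.95 on the log2 scale (adjusted p = 1.0e-04, edgeR). Car2 and its exchanger Slc4a2 therefore moved in opposite directions in both clones.

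Of 12 tested genes of proton and lactate export, 6 were higher and 4 lower in Vcam1KO1 (median log2 fold change 0.40), and 4 were higher and 3 lower in Vcam1KO2 (median 0.45). Among all genes the shares called higher and lower were 29.9% and 30.0% in Vcam1KO1 and 25.3% and 26.1% in Vcam1KO2. Slc16a3, the lactate exporter MCT4 of glycolytic cells, stood at 231, 208 and 304 CPM in control and at no more than 1.08 CPM in any clone library (log2 fold change -9.18, adjusted p = 7.5e-05, edgeR). Slc9a2, a sodium-proton exchanger, fell by 5.39 on the log2 scale (adjusted p = 0.0080, edgeR). Emb, a chaperone of lactate carriers, rose by 2.76 on the log2 scale (adjusted p = 2.4e-04, edgeR). Of the membrane enzymes with the active site outside, Car9 and Car12 were lower in both clones. Car14 was not, with 64 pooled counts in Vcam1KO1 and 2 in Vcam1KO2 against 0 in control. The lactate exporter Slc16a3 was lower in both clones too, although more genes of its list were called higher than lower in each.

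Because Car3 is abundant in fat and muscle, the markers of both were read beside it. Of 7 tested adipocyte genes, 5 were higher and 1 lower in Vcam1KO1 (median log2 fold change 3.33), 2 were higher and 1 lower in Vcam1KO2 (median 0.76), and 6 were higher in Vcam1KO1 than in Vcam1KO2. Against control, 29.9% of all genes were called higher and 30.0% lower in Vcam1KO1, and 25.3% and 26.1% in Vcam1KO2. Between the clones 20.2% of all genes were called higher in Vcam1KO1 and 18.5% lower. The counts include Plin1, tested only because the Vcam1KO1 libraries passed the filter (776 pooled counts, against 16 in control and 8 in Vcam1KO2). They also include Cidec, tested only because of control (5165 pooled counts, against 89 in Vcam1KO1 and 0 in Vcam1KO2). The calls of Plin1 and Cidec are thus no support for a difference. The summed level of the list was 59.6 to 82.3 CPM in control, 176 to 227 CPM in Vcam1KO1 and 49.7 to 85.8 CPM in Vcam1KO2. Pparg, the master regulator of fat cells, stood at 7.57, 7.09 and 9.54 CPM in control, 80.1, 92.6 and 69.9 CPM in Vcam1KO1 and 16.2, 17.3 and 12.1 CPM in Vcam1KO2 (log2 fold change 3.33, adjusted p = 8.8e-07 in Vcam1KO1 and 0.91, adjusted p = 0.0020 in Vcam1KO2, edgeR). Its groups followed the same order as those of Car3 and Car13. Cebpa, its partner, rose by 1.45 on the log2 scale with both clones together (adjusted p = 0.033, edgeR), and Cidec, a lipid droplet protein, fell by 6.53 (adjusted p = 0.0038, edgeR).

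Adipoq, Plin1 and Fabp4, named after their values were seen, were near 0 in control and highest in Vcam1KO1. Adipoq, the hormone adiponectin, stood at 3.97, 3.80 and 27.8 CPM in Vcam1KO1 and at no more than 0.0239 CPM in control and 0.255 CPM in Vcam1KO2. Plin1, a lipid droplet coat protein, stood at 0.973, 0.824 and 10.1 CPM in Vcam1KO1, and Fabp4, a fatty acid carrier, at 5.75, 8.57 and 13.9 CPM. Replicate 3 was the highest of that clone for Car3 and for 6 of the 10 adipocyte genes (Adipoq, Plin1, Fabp4, Cidec, Cfd and Lpl) but not for Pparg, Cebpa, Lep and Retn, and Pparg was at 0.810 times and Cebpa at 0.941 times the mean of replicates 1 and 2. It was the lowest for Mki67, a marker of dividing cells, at 27.7 CPM against 216 and 238 CPM. The fat hormone genes Lep and Retn stayed at 0.0956 CPM or less in all libraries, and Cfd, the fat cell protease adipsin, reached 1.10 CPM in replicate 3 of Vcam1KO1 and 0.0449 CPM or less elsewhere. The part of an adipocyte-like state or of the passage in the level of Car3 was not tested.

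The muscle regulators Myod1, Myog, Myf5 and Myf6 had 0 counts in all 9 libraries. For the counts of muscle genes below, 29.9% of all genes were called higher and 30.0% lower in Vcam1KO1. In Vcam1KO2 these shares were 25.3% and 26.1%, and between the clones 20.2% and 18.5%. The summed muscle list was at 7.33 to 10.9 CPM in Vcam1KO1 and 9.29 to 14.1 CPM in Vcam1KO2 against 1.67 to 2.73 CPM in control, with 2 of 5 tested genes higher and 1 lower in Vcam1KO1, and 3 higher and 2 lower in Vcam1KO2. Most of that sum was Casq1, a calcium-binding protein, which rose by 3.61 on the log2 scale (adjusted p = 9.2e-05, edgeR). Casq1 did not pass the test between the clones (adjusted p = 0.29, edgeR). Between the clones edgeR called 1 muscle gene higher in Vcam1KO1 and 0 lower, with 1 lower (Tnni1, a slow troponin) at an unadjusted p under 0.05 and 1 called lower by each of limma-voom and DESeq2. The gene called higher was Acta1, skeletal actin, at 98 against 16 pooled counts, a ratio of 5.35 with a counting interval from 3.13 to 9.72 (adjusted p = 0.011, edgeR). The part of muscle genes in the level of Car3 was not tested.

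**Figure D5:**
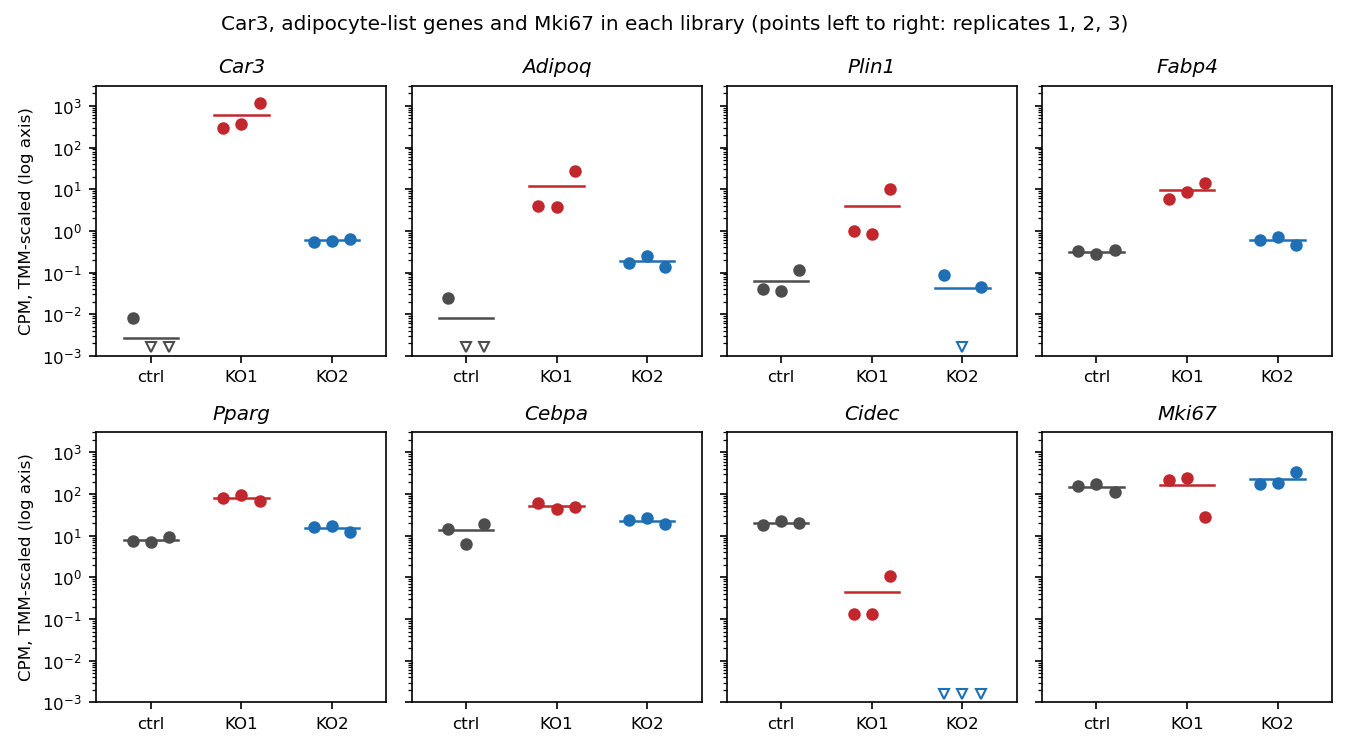
Car3, 6 adipocyte genes and the proliferation gene Mki67 in each library, in CPM on a log axis; points from left to right are replicates 1 to 3, bars are means and open triangles are 0 counts. Replicate 3 of Vcam1KO1 is the highest library for Car3, Adipoq, Plin1 and Fabp4 and, at 27.7 CPM, the lowest for Mki67.

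Other cell type markers moved as follows, and their part in the carbonic anhydrase results was not tested. Beside these counts, 29.9% of all genes were called higher and 30.0% lower in Vcam1KO1, and 25.3% and 26.1% in Vcam1KO2. Of 9 biliary genes, 1 was higher (Spp1, osteopontin, log2 fold change 2.03 with both clones together) and 6 were lower in each clone, among them Krt18 and Krt19 (-16.90 and -14.40 with both clones together). Of 6 tested hepatocyte genes, 4 were lower in Vcam1KO1 and 5 in Vcam1KO2, among them Ttr (-11.33), and the list summed to 45.7 to 185 CPM in control and to 3.94 CPM or less in the clones. Of 6 tested fibroblast genes, 4 were higher and 1 lower in Vcam1KO1 and 5 were higher in Vcam1KO2, with log2 fold changes of 6.06 for Col1a1 and 4.37 for Acta2 with both clones together, and the list summed to 409 to 795 CPM in control and to 5852 to 10680 CPM in the clones. Among the biliary and hepatocyte genes, Krt18, Epcam, Ttr, Serpina1a and Fgb held at most 12 pooled counts in either clone. They passed the filter through the control libraries alone, so a lower call was built into their being tested. Of 12 proliferation genes, 1 was lower in Vcam1KO1. In Vcam1KO2 edgeR called 0 of them higher, with 1 at an unadjusted p under 0.05, and DESeq2 called 1. Of 4 tested haematopoietic genes, 1 was higher and 1 lower in Vcam1KO1 and 1 lower in Vcam1KO2, and of 2 tested endothelial genes 1 was lower in Vcam1KO1. The haematopoietic list summed to 4.54 to 10.5 CPM and the endothelial list to 0.668 to 2.01 CPM over all 9 libraries.

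The genes whose log2 levels were most like those of Car3 over the 9 libraries were named by Pearson's r, as a description, among 13087 genes with a mean of at least 1 CPM. They were Ccdc102a (0.998), Adamts10, a secreted protease of the extracellular matrix (0.997), Apbb2, an adaptor of the amyloid precursor protein (0.996), Hadha, a subunit of mitochondrial fatty acid oxidation (0.996), and Atp6v0d1, a subunit of the proton pump of lysosomes (0.995). The points share 3 libraries per group, so each r mainly reflects the order and spacing of the 3 group means. Hadha stood at 104, 103 and 107 CPM in control, 297, 291 and 348 CPM in Vcam1KO1 and 144, 153 and 165 CPM in Vcam1KO2, the same order of groups as Car3 over a far narrower range. By Spearman's rho none of the 5 was among the 6 genes that shared the highest value, 0.996.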

How the data were processed

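Messenger RNA of Vcam1ctrl, Vcam1KO1 and Vcam1KO2 PPTR cells was sequenced in stranded, paired-end libraries, 3 per group. Per the labels, the authors ran kallisto 0.46.1 on mm10, and they deposited estimated counts per gene symbol as whole numbers without normalization. The step from transcripts to symbols is not given in the sources used here. Totals of 53415907 to 125223073 counts per library set the precision for genes at few counts. No columns of comparisons by the authors were used.

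Counts were scaled with TMM, filtered with filterByExpr and tested with edgeR 4.0.16 in R 4.3.3. Each clone and the clones against each other were fitted with 3 groups over all 9 libraries, and both clones together with 2 groups, at an adjusted p of 0.05. The study's own test was limma-voom after TMM, which was run as an alternative (limma 3.58.1), as were DESeq2 1.42.0, upper-quartile scaling, other filters, a threshold of 0.01, contrasts averaged over the clones, fits on the groups compared and leaving out each library. Leaving out replicate 3 of both clones was added after the data were seen. The code was tested on simulated data. Each SE was derived from edgeR's test, as the absolute log2 fold change divided by the square root of the F statistic. The log2 levels used for correlations had a prior count of 2, and fitted log2 fold changes used edgeR's default prior count. Differences of carbonic anhydrase genes from control are given as ratios of pooled counts where a group held 30 or fewer counts. These ratios carry 95% binomial intervals or, at 0, are set against a floor of 3 counts over the group. Most other genes at such counts are given as fitted log2 values, among them Krt18, Krt19, Ttr, Slc16a3, Slc9a2 and Cidec. Those values depend on the prior count. The list counts include genes that passed the filter through a single group alone. A difference in such genes was built into their being tested.

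The members, gene lists and tests were chosen with earlier results of these data known. Genes were named by rule: the carbonic anhydrase genes and related receptors, genes within 500 kb of Car3, the 5 genes most like Car3, Vcam1, and in each list up to 2 highest and 2 lowest called genes with a mean of at least 5 CPM. Other list genes were named after their values were seen, and some genes named by the rule are not reported here. Positions, exon lengths and coding sequences are from GENCODE vM21 (GRCm38); the counts rest on vM24. Promoters are from RefSeq, which held 11 of the 16 carbonic anhydrase genes.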

Additional observations from a re-analysis of the deposited data

Results flagged for a closer look

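For 10 of the 12 tested carbonic anhydrase genes other than Car3, the effects of the clones against the shared control differed by the test of the clones against each other (edgeR's quasi-likelihood test, adjusted p), against 20.2% of all genes called higher and 18.5% called lower in Vcam1KO1 than in Vcam1KO2. These 10 include Car14 and Car1, which passed the filter through Vcam1KO1 alone. They also include Car6, which was tested only because the control libraries passed the filter. The log2 difference of Vcam1KO1 minus Vcam1KO2 was 1.17 for Car2 (adjusted p = 0.014), 2.55 for Car9 (0.0038), 2.54 for Car11 (7.3e-04) and 1.57 for Car13 (6.3e-04). It was -1.56 for Car5b (8.6e-05) and -0.84 for Car12 (0.010). For genes at few counts the fitted differences depend on edgeR's default prior count, at 4.63 for Car14 (0.0019), 3.57 for Car1 (0.0096) and -9.32 for Car6 (0.014). Car7 differed by 1.96 (0.0065). The call of Car2 was lost without replicate 1 of Vcam1KO2 (0.052) and that of Car6 under limma-voom (0.067). Car5b alone was called in opposite directions in the clones. Groups of 3 libraries were not tested for outlying samples.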

How the results depend on the processing

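Of 543 alternative values of called carbonic anhydrase genes other than Car3, 524 kept their direction and call, 19 lost the call and 0 changed sign. Of 193 values of genes not called, 16 were called and 28 changed sign. With both clones together, Car5b went from -0.12 to 0.0040 and 0.026 without Vcam1KO1 replicate 2 or 3. Car7 (main 0.19) was at -0.21 by limma-voom, -0.12 with averaged contrasts, between -0.43 and 0.35 over leave-one-out fits and at -0.33 without replicate 3 of both clones. In Vcam1KO2, Car11 (main 0.01) ran from -0.27 to 0.26 over leave-one-out fits and was at -0.032 by limma-voom, -0.030 by DESeq2, -0.058 with upper-quartile scaling, -0.024 without a filter and -0.033 with a filter at 1 CPM. Between the clones, Car15 (main 0.01) ran from -0.14 to 0.18 over leave-one-out fits and was at -0.0048 by DESeq2, -0.032 without a filter, -0.016 with only the clones fitted and -0.23 without replicate 3 of both clones, and Car8 (main -0.19) ran from -0.79 to 0.26 over leave-one-out fits.

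At an adjusted p of 0.01, 4882 in place of 7591 genes were called with both clones together and 4060 in place of 6834 between the clones. Over all settings the count of tested members called ran from 4 to 7 (main 5) for both clones together, 6 to 8 (main 8) in Vcam1KO1, 5 to 6 (main 6) in Vcam1KO2 and 5 to 7 (main 7) between the clones. By Spearman's rho 0 in place of 5 of the genes most like Car3 were kept. The cause was not tested. By coding length, Car3 made up 63.3% of the family sum in Vcam1KO1 in place of 58.9%, and in control Car6 made up 9.29% in place of 17.7% and Car12 22.7% in place of 11.9%. Coding length from RefSeq proteins was not run. No paired analysis was possible because the library numbers run from the first to the last library and mark no shared passage. Depth limits Car4, Car8, Car9 and Car14, with few counts in a group.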

Other observations

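Replicate 3 of Vcam1KO1 was set against the mean of replicates 1 and 2 for the carbonic anhydrases, as values without a test. It held 3.46 times as much Car3, 3.45 times as much Car1, 2.62 times as much Car7, 2.09 times as much Car2 and 1.61 times as much Car13. The membrane genes Car12 (1.33 times), Car9 (1.14 times) and Car14 (1.52 times) and the related gene Car11 (1.26 times) differed less, and Car5b was at 0.758 times. The 4 genes of the Car3 cluster were all higher in that library, but this was not particular to the cluster. Outside it Car7 rose more than Car2 and Car13, and Car9, Car11, Car12, Car14 and Car15 (1.23 times) were higher too. That library also held the least proliferation mRNA.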
